A study of Mus musculus with 6 samples.

Results

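The 32 genes described here control, build and move cholesterol: 5 genes of the SREBP control system, 8 of the mevalonate section of cholesterol synthesis, 11 of the squalene and sterol section, and 8 of sterol transport, efflux and storage. They were listed by name for their known roles, with earlier results of these data already known, and all 32 were among the 15452 genes of the table and among the 15361 genes tested. Their messenger RNA was measured in mouse Th17 cells, helper T cells named for the interleukin 17 they secrete. Bead-sorted naive CD4+ T cells of spleen and lymph node were kept for 3 days on plate-bound anti-CD3 (5 µg/mL) with anti-CD28 (1 µg/mL), IL-6 (30 ng/mL), TGFβ (2 ng/mL) and anti-IFNγ (5 µg/mL). The 3 WT libraries came from mice with floxed PDH alleles and no Cre. The 3 PDH knockout libraries came from mice with the same floxed alleles plus CD4 Cre, which acts in developing T cells. PDH stands for pyruvate dehydrogenase, which makes acetyl-CoA from pyruvate in mitochondria, and the labels do not name which of its genes is floxed. Sample titles spell the floxed locus PHD and the genotype label spells it PDH. Cre was present in the knockout libraries alone, so an effect of Cre and an effect of the deletion cannot be told apart. Age, sex and strain are not stated by the labels, and neither is whether each replicate is a mouse of its own. The p-values therefore reflect only how far these samples spread, which may be technical.

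Cholesterol is made from acetyl-CoA, which is joined into mevalonate, trimmed to isoprene units, linked into squalene and folded into sterols. The SREBP transcription factors start as membrane proteins of the endoplasmic reticulum, held there by SCAP and the INSIG proteins while sterols are plentiful. When sterols run low the complex moves to the Golgi, SREBP is cut free and the genes of the pathway are switched on. LXR receptors answer the opposite state, a surplus of sterol, by raising export. In Th17 cells, sterol intermediates of this pathway are known to bind RORγt, the transcription factor that defines the lineage.

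The libraries held between 33.8 and 40.4 M counts (M, 1e+06), and the members took 0.405% to 0.428% of them in WT and 0.497% to 0.523% in knockout. Levels below are TMM-scaled CPM, counts per 1e+06 counts after library scaling, given for replicates 1, 2 and 3 of each group in that order. Changes are log2 fold changes of knockout over WT ± SE, with adjusted p-values from edgeR's quasi-likelihood test with Benjamini-Hochberg adjustment over all genes tested. A gene rose or fell where the adjusted p was under 0.05. Pdha1, a PDH subunit gene, ran from 236 to 256 CPM in WT and from 186 to 198 CPM in knockout. Dlat, another gene of the PDH complex, ran from 78.1 to 84.0 CPM in WT and from 50.1 to 52.2 CPM in knockout. Pdhb, also of the complex, ran from 83.8 to 89.9 CPM in WT and from 77.4 to 81.8 CPM in knockout. Pdha1 and Dlat fell, and Pdhb was not called (adjusted p = 0.0630). Counts summed over a gene do not reveal a deleted exon. Marker sums, scaled by library totals, served to check the cell type. T cell markers (5 of 5 in the table) summed to 1607 to 1738 CPM in WT and 1335 to 1441 CPM in knockout, and Th17 markers (6 of 6) to 902 to 1210.0 CPM and 592 to 752 CPM. For both sums the groups did not overlap (exact two-sided permutation p = 0.1, the smallest that 3 against 3 libraries can give), and their part in the results was not tested. B cell markers (10 of 10) summed to 66.3, 129 and 54.1 CPM in WT and to 64.6, 150.3 and 230.4 CPM in knockout (exact permutation p = 0.3). CD8 T cell markers summed to at most 14.9 CPM and myeloid markers (5 of 7) to at most 22.1 CPM, 1 of 3 NK cell markers was in the table, and no erythroid marker was. In these bulk samples, fewer cells of a type and less RNA per cell cannot be told apart.

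Among the 32 members 13 rose, 8 fell and 11 were not called. The share that rose was 40.6%, against 23.1% of all genes tested, and the share that fell was 25%, against 24.5% of all genes tested. A change in either direction was called in 65.6% of members and in 47.6% of all genes tested. Knockout values lay wholly above WT values in 13 of the 32 members, against 28.8% of all genes tested. They lay wholly below WT values in 7 of the 32 members, against 29.4% of all genes tested. The median log2 fold change was 0.08 over the members and 0.01 over all genes tested. Tested against a fold change of 1.2 instead of against no change, 8 members rose and 3 fell. Those 8 were Insig1, Acat2, Hmgcs1, Mvd, Idi1, Fdft1, Lss and Mylip, and the 3 were Insig2, Npc2 and Soat1.

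**Figure D1:**
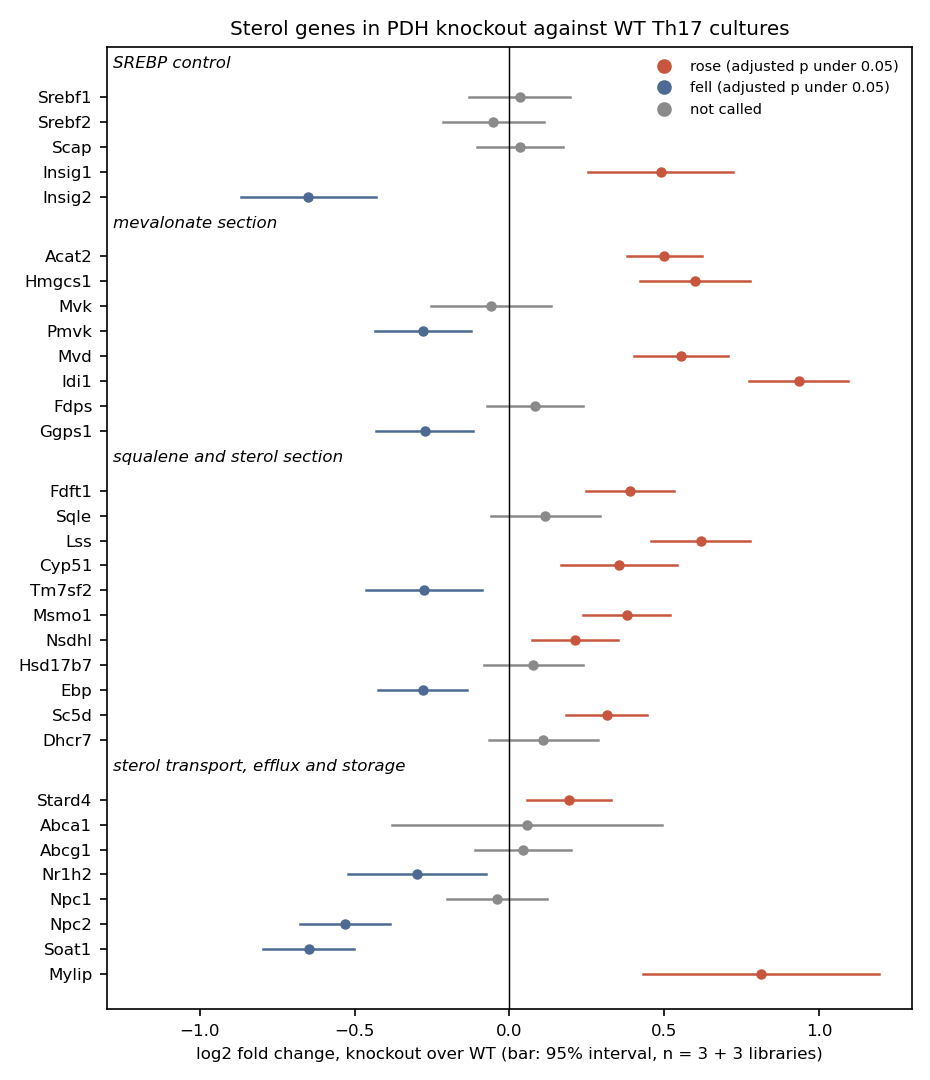
Log2 fold change of knockout over WT for each of the 32 members (horizontal axis), grouped by role, with the 95% interval as a line and the call by colour. Idi1 lies farthest to the right at 0.93, and Insig2 and Soat1 farthest to the left at -0.65.

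**Figure D2:**
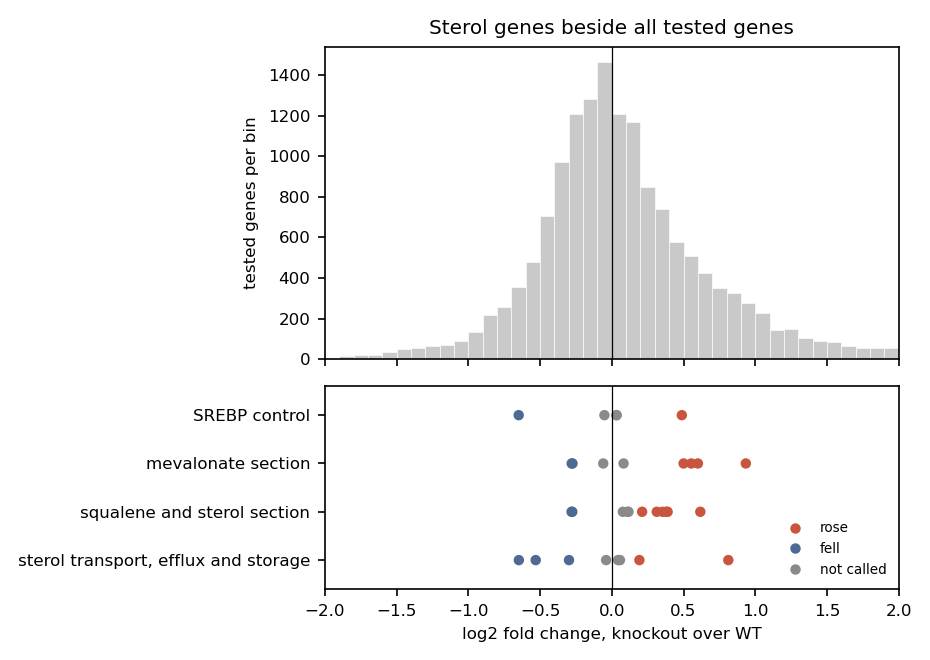
Distribution of log2 fold changes of all 15361 genes tested, with the 32 members marked beneath it. The members spread from -0.65 to 0.93 around a median of 0.08, and the median of all genes was 0.01.

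Promoter sequences are shown for 6 of the 10 members whose change was called in every alternative analysis. Of the others, Fdft1 had no matched promoter, and Acat2, Mvd and Npc2 are not printed. RefSeq promoters (GRCm38.p6) from 250 bases before to 50 bases after each start were matched for 26 of the 32 members. The windows were searched on both strands for the core of the sterol regulatory element that SREBP binds (TCACNCCAC), the NF-Y core CCAAT and the Sp1 core GGGCGG, none of which contains another. The lines below give the 220 bases before the start, 5′ to 3′ on the strand of the gene, for genes that rose (Hmgcs1, Idi1, Lss, Insig1) and genes that fell (Insig2, the first of 3 entries, and Soat1). Capitals mark the sterol element core and CCAAT, which reads ATTGG when it lies on the other strand. The stretches are chr13:119690131-119690350 (plus strand, Hmgcs1), chr13:8885386-8885605 (plus, Idi1), chr10:76531385-76531604 (plus, Lss), chr5:28071192-28071411 (plus, Insig1), chr1:121332590-121332809 (minus, Insig2) and chr1:156474329-156474548 (minus, Soat1).
Hmgcs1: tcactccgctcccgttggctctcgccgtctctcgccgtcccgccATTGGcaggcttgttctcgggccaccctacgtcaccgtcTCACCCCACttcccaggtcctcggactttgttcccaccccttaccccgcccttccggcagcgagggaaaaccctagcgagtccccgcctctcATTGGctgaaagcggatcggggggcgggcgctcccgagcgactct
Idi1: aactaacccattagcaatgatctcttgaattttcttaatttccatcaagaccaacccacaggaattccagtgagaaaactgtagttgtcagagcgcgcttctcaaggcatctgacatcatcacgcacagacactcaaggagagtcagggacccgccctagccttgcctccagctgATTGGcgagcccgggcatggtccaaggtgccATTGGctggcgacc
Lss: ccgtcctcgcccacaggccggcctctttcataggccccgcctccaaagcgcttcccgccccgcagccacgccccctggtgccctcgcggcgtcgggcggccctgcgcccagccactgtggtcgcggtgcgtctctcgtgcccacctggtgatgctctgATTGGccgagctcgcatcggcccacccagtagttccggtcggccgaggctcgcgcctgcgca
Insig1: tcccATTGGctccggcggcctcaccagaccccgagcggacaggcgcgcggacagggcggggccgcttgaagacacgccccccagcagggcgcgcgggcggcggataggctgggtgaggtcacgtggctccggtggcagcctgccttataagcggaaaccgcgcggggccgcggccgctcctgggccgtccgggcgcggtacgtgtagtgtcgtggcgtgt
Insig2: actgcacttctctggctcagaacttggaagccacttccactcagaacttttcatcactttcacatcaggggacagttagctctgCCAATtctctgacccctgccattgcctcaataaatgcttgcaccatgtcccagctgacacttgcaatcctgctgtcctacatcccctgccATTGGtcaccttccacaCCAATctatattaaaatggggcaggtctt
Soat1: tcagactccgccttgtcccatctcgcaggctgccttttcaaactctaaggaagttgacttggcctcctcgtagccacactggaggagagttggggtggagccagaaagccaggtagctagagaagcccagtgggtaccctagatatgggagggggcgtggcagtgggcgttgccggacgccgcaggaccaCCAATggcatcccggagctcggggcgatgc

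Of the printed stretches, the one of Hmgcs1 alone holds the sterol element core, which begins 137 bases before the start, and it also holds 2 CCAAT matches. That core was in 1 of 26 members (3.85%) and in 1.44% of the 27025 genes with a promoter in the table. CCAAT was in 22 of 26 members (84.6%) and in 41.1% of all genes with a promoter, or 42.9% of those that were tested here. By direction, 10 of 11 members that rose, 7 of 8 that fell and 5 of 7 not called held it. The member that rose without it was Acat2. A gene was counted where any of its promoter entries held the motif. For Insig2 only the printed entry held CCAAT, while its other entries held GGGCGG. Which entry these cells use was not tested. GGGCGG was in 23 of 26 members (88.5%), in 38.2% of all genes and in 66.6% of those tested. It was held by 11 of 11 members that rose, 5 of 8 that fell and 7 of 7 not called, splits that were not tested. A match describes letters in this window only. The search took these exact spellings (N, any base), so a member without a match was not shown to lack a binding site.

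The genes of the SREBP machinery split into 3 that were not called and an INSIG pair that moved in opposite directions. Srebf2 encodes the SREBP best known for cholesterol genes, Srebf1 the one best known for fatty acid genes, and Scap their escort to the Golgi. Srebf2 was at 489, 491 and 455 CPM in WT and 430.4, 453 and 501 CPM in knockout. Srebf1 was at 190.4, 202 and 172 CPM in WT and 186, 187 and 205 CPM in knockout. For both genes the groups overlapped, with log2 fold changes of -0.05 ± 0.07 (adjusted p = 0.583, 95% interval -0.21 to 0.11) and 0.03 ± 0.07 (adjusted p = 0.737, -0.13 to 0.20). Scap overlapped too, with a log2 fold change of 0.03 ± 0.06 (adjusted p = 0.685, -0.11 to 0.17). Rai1, which overlaps Srebf1 on the other strand, was not called either (0.10 ± 0.08, adjusted p = 0.304). The intervals of Srebf2, Srebf1 and Scap leave out a change of 1.2-fold or more. Per kilobase of exon, the WT level of Srebf2 was 66.6 CPM and that of Srebf1 33.4 CPM. RNA levels do not measure how much SREBP protein is cut free.

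INSIG proteins keep SCAP and SREBP in the endoplasmic reticulum, and Insig1 is itself a known SREBP target. Insig1 (ENSMUSG00000045294.12) was at 99.5, 123 and 105 CPM in WT and 138, 174 and 147 CPM in knockout. All 3 knockout libraries lay above all 3 WT libraries, a rise of 0.49 ± 0.10 on the log2 scale (adjusted p = 0.00462). Insig2 (ENSMUSG00000003721.15) was at 26.5, 24.5 and 28.4 CPM in WT and 15.8, 19.0 and 15.9 CPM in knockout. Here all 3 knockout libraries lay below WT, with a log2 fold change of -0.65 ± 0.10 (adjusted p = 0.000614). Per kilobase of exon, Insig1 stood at 35.3 CPM and Insig2 at 7.62 CPM in WT, and at 49.5 and 4.86 CPM in knockout. The ratio of Insig1 to Insig2 counts was 3.75, 5.00 and 3.70 in the WT libraries and 8.73, 9.15 and 9.27 in the knockout libraries. Its mean was 4.15 ± 0.73 (SD, n = 3) in WT and 9.05 ± 0.29 (SD, n = 3) in knockout, with no overlap. Both calls held in each of the 19 alternative analyses.

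**Figure D3:**
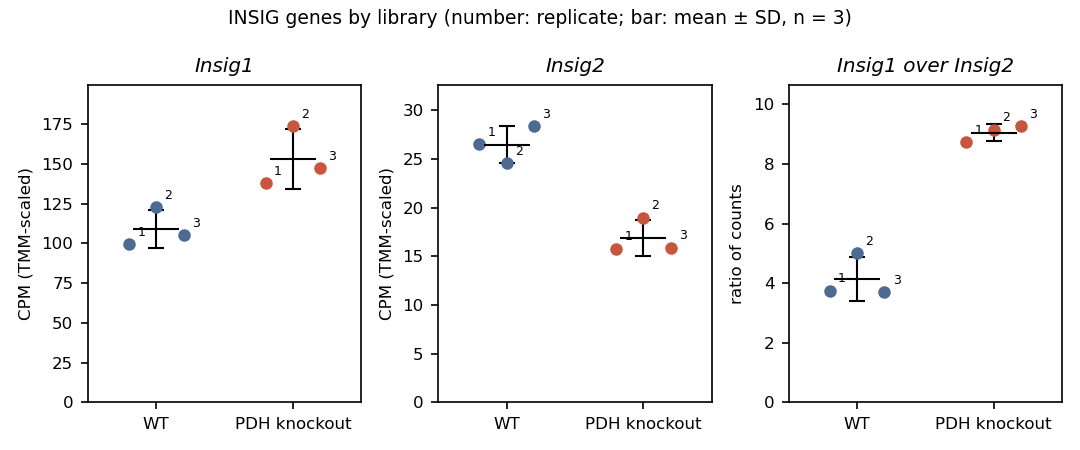
Levels of Insig1 and Insig2 (TMM-scaled CPM) and the ratio of their counts in each library, with numbers for replicates and bars for the mean ± SD of 3 libraries. Insig1 is higher and Insig2 lower in every knockout library than in every WT library, and the knockout ratios of 8.73 to 9.27 lie above the WT ratios of 3.70 to 5.00.

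Genes that act on this machinery, taken from a separate list of SREBP processing and INSIG turnover, moved in both directions. Of these 9, 2 rose (22.2%), 4 fell (44.4%) and 3 were not called, against 23.1% and 24.5% of all genes tested that rose and fell. The 4 that fell are not named here. Rnf145, an E3 ubiquitin ligase gene of the endoplasmic reticulum, rose by 0.45 ± 0.06 on the log2 scale, from 129, 140.3 and 132 CPM to 183, 185 and 179 CPM (adjusted p = 0.000247). Mbtps1, the Golgi protease gene that makes the first cut in SREBP, rose by 0.24 ± 0.05 (adjusted p = 0.00413). It was picked after its values were seen, as was Mbtps2, the protease gene of the following cut, which was not called (-0.15 ± 0.07, adjusted p = 0.0796).

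In the synthesis pathway as a whole, 10 of 19 genes rose (52.6%), 4 fell (21.1%) and 5 did not pass the test. Of all genes tested, 23.1% rose and 24.5% fell. The median log2 fold change of the 19 genes was 0.21. Summed over the 19 genes the level was 2529 ± 109 CPM (SD, n = 3) in WT and 3415 ± 102 CPM (SD, n = 3) in knockout, 1.35-fold higher. The rises ran from 0.21 for Nsdhl to 0.93 for Idi1, while the 4 falls all lay at -0.27 or -0.28. Tested against a fold change of 1.2, 6 of the 10 rises passed (not Cyp51, Msmo1, Nsdhl and Sc5d) and none of the 4 falls did.

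The mevalonate section held the largest rise of the pathway, that of Idi1. Of its 8 genes 4 rose (50%), 2 fell (25%) and 2 were not called, against 23.1% and 24.5% of all genes tested that rose and fell. The 8 genes summed to 1362 ± 82.2 CPM (SD, n = 3) in WT and 1985 ± 54.9 CPM (SD, n = 3) in knockout, 1.46-fold higher. Idi1 and Hmgcs1 carry most of that gain: the other 6 genes summed to 606 ± 29.0 CPM (SD, n = 3) in WT and 689.7 ± 4.03 CPM (SD, n = 3) in knockout, 1.14-fold. Acat2 (ENSMUSG00000023832.15), which joins acetyl-CoA units at the start of the pathway, was at 121, 120.2 and 126 CPM in WT and 172, 169 and 179 CPM in knockout. Its libraries did not overlap, and the replicates of each group lay close together (log2 fold change 0.50 ± 0.05, adjusted p = 0.000116). Its paralog Acat3 reached at most 0.421 CPM in any library. Hmgcs1 (ENSMUSG00000093930.3), the synthase of the next step, was at 356, 367 and 416 CPM in WT and 547, 621 and 558 CPM in knockout. Its lowest knockout library lay above its highest WT library, a rise of 0.60 ± 0.08 on the log2 scale (adjusted p = 0.000314).

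The kinase genes that follow did not share in the rise. Mvk, mevalonate kinase, was at 28.0, 26.6 and 23.4 CPM in WT and 24.5, 24.1 and 26.3 CPM in knockout, with overlapping groups (-0.06 ± 0.09, adjusted p = 0.594). Pmvk, phosphomevalonate kinase, was at 59.6, 61.0 and 67.3 CPM in WT and 49.6, 54.3 and 50.9 CPM in knockout. Every knockout library lay below every WT library, and the log2 fold change was -0.28 ± 0.07 (adjusted p = 0.00833). Mvd, the decarboxylase that makes the first isoprene unit, was at 72.1, 72.8 and 79.6 CPM in WT and 103, 111 and 116 CPM in knockout. It rose by 0.55 ± 0.07 on the log2 scale without overlap (adjusted p = 0.000208).

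Idi1 (ENSMUSG00000058258.16), the isomerase that turns one isoprene unit into its reactive partner, moved most of all members. Its level was 345, 388 and 398 CPM in WT against 725, 742 and 694 CPM in knockout. The lowest knockout library stood far above the highest WT library, and the fitted fold change was 1.91, or 0.93 ± 0.07 on the log2 scale (adjusted p = 2.18e-05). Per kilobase of exon Idi1 had the highest WT level among the 19 synthesis genes, 107.5 CPM, and 205.4 CPM in knockout. Its paralog Idi2 was low, from 2.59 to 6.30 CPM, and was not called. Downstream of Idi1 the pathway branches. Fdps, which makes the farnesyl precursor of squalene and of prenyl groups, was at 272, 264 and 305 CPM in WT and 309, 295 and 288 CPM in knockout, with overlapping groups (0.08 ± 0.07, adjusted p = 0.351). Ggps1, which draws that precursor into the geranylgeranyl branch, was at 38.9, 41.7 and 37.5 CPM in WT and 34.0, 31.4 and 32.2 CPM in knockout. It fell without overlap (-0.27 ± 0.07, adjusted p = 0.0101). Ggps1 shares part of its locus with Arid4b on the other strand, which also fell (-0.16 ± 0.06, adjusted p = 0.0449), and whether the counting used strand is not given in the sources used here.

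**Figure D4:**
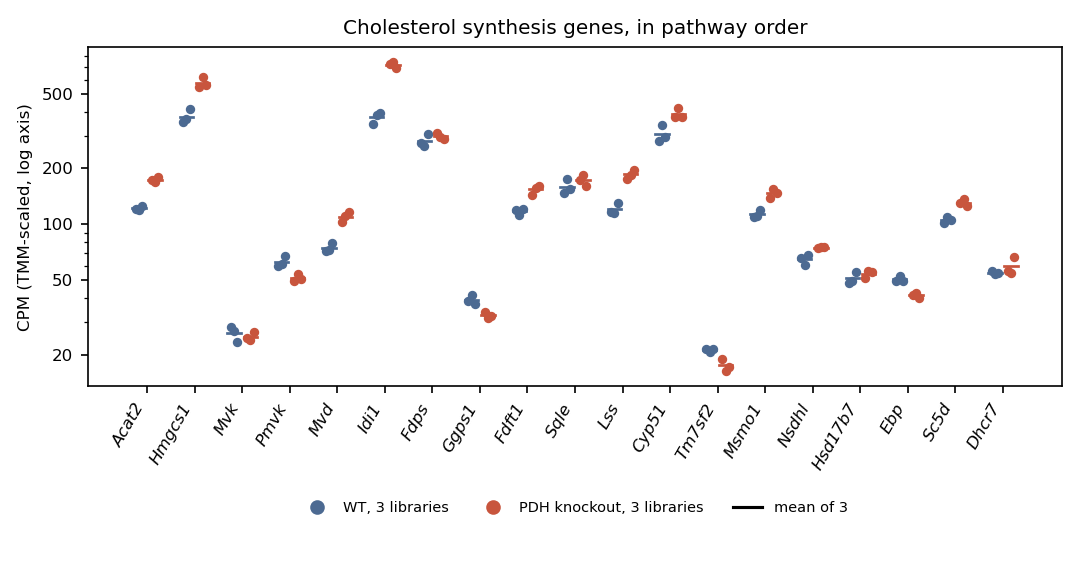
Levels of the 19 synthesis genes in pathway order, as TMM-scaled CPM on a log axis, with a point for each library and a line at the mean of 3. Idi1 shows the widest gap, 345 to 398 CPM in WT against 694 to 742 CPM in knockout, and Mvk, Fdps, Sqle, Hsd17b7 and Dhcr7 show overlapping groups.

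The 11 genes of the squalene and sterol section summed to 1166 ± 43.2 CPM (SD, n = 3) in WT and 1430.4 ± 52.2 CPM (SD, n = 3) in knockout, 1.23-fold higher. In it 6 genes rose (54.5%), 2 fell (18.2%) and 3 were not called, against 23.1% and 24.5% of all genes tested that rose and fell. Fdft1, squalene synthase, was at 119, 113 and 122 CPM in WT and 144, 157 and 161 CPM in knockout, a rise of 0.39 ± 0.06 without overlap (adjusted p = 0.000934). Its opposite-strand neighbour Ctsb, a lysosomal protease gene, fell (-0.53 ± 0.07, adjusted p = 0.000241). Sqle, the squalene epoxidase that often limits flux, was at 148, 176 and 154 CPM in WT and 174, 183 and 161 CPM in knockout. The groups overlapped through WT replicate 2 and the log2 fold change was 0.12 ± 0.08 (adjusted p = 0.250, 95% interval -0.06 to 0.29). Without WT replicate 2, Sqle passed (0.19, adjusted p = 0.0445), and so it did under upper-quartile scaling (0.20, adjusted p = 0.0465).

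Lss (ENSMUSG00000033105.13), which folds the epoxide into lanosterol, the first sterol, changed most in this section. It was at 117, 115 and 131 CPM in WT and 174, 185 and 197 CPM in knockout. All knockout libraries lay above WT, a rise of 0.62 ± 0.07 on the log2 scale (adjusted p = 0.000158). Cyp51, the lanosterol demethylase, was at 282, 342 and 295 CPM in WT and 376, 420.2 and 379 CPM in knockout. WT replicate 2 came closest to the knockout range, and the rise was 0.35 ± 0.08 (adjusted p = 0.00654). Akap9, on the other strand at the same locus, also rose (0.37 ± 0.07, adjusted p = 0.00155). Tm7sf2, a sterol reductase gene of the following step, was at 21.4, 20.6 and 21.5 CPM in WT and 19.0, 16.3 and 17.2 CPM in knockout. It fell by 0.28 ± 0.08 on the log2 scale (adjusted p = 0.0219) but did not pass without WT replicate 1, knockout replicate 2 or knockout replicate 3 (adjusted p from 0.0667 to 0.0781). It overlaps Vps51 on its own strand in the GENCODE annotation, and Vps51 rose (0.24 ± 0.06, adjusted p = 0.0116).

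The genes of the later steps went different ways. Msmo1, the methylsterol oxidase, was at 110.1, 110.3 and 119 CPM in WT and 139, 155 and 147 CPM in knockout, a rise of 0.38 ± 0.06 without overlap (adjusted p = 0.00108). Nsdhl, the dehydrogenase that acts with it, was at 65.7, 60.6 and 68.4 CPM in WT and 74.4, 75.6 and 75.4 CPM in knockout. Its rise of 0.21 ± 0.06 (adjusted p = 0.0189) did not pass without WT replicate 1, knockout replicate 2 or knockout replicate 3 (adjusted p from 0.0544 to 0.0588). Hsd17b7, the ketosteroid reductase of the same cycle, overlapped at 48.7 to 55.7 CPM in WT and 51.3 to 56.2 CPM in knockout (0.08 ± 0.07, adjusted p = 0.398).

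Ebp, the sterol isomerase, was at 49.4, 53.1 and 49.4 CPM in WT and 42.0, 43.0 and 40.0 CPM in knockout. Each knockout library was below each WT library (log2 fold change -0.28 ± 0.06, adjusted p = 0.00570). Sc5d, the desaturase after it, was at 102, 109 and 106 CPM in WT and 130.4, 137 and 126 CPM in knockout and rose without overlap (0.31 ± 0.06, adjusted p = 0.00205). Dhcr7, a reductase of the final step, was at 56.5, 54.2 and 54.6 CPM in WT and 56.5, 55.1 and 66.7 CPM in knockout. Knockout replicate 3 was the highest library, and the gene was not called (0.11 ± 0.08, adjusted p = 0.275). Ebp thus fell while Sc5d, which acts directly after it, rose.

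Sterol transport, efflux and storage genes moved in both directions. The 8 of them summed to 767 ± 35.3 CPM (SD, n = 3) in WT and 648 ± 10.8 CPM (SD, n = 3) in knockout, 0.845-fold, with 2 rises, 3 falls (1 of them, Nr1h2, overlapping) and 3 genes not called. The shares were 25% and 37.5%, against 23.1% and 24.5% of all genes tested, and the median log2 fold change was 0.00. Soat1 (ENSMUSG00000026600.13) encodes the enzyme that stores surplus cholesterol as esters. It was at 63.7, 59.0 and 66.0 CPM in WT and 39.1, 39.7 and 41.7 CPM in knockout. All knockout libraries lay well below WT, with a log2 fold change of -0.65 ± 0.07 (adjusted p = 7.83e-05). Npc2 (ENSMUSG00000021242.10), the lysosomal protein that hands cholesterol to NPC1, was at 381, 341 and 363 CPM in WT and 242, 263 and 246 CPM in knockout, again without overlap (-0.53 ± 0.07, adjusted p = 0.000214). Npc1, the membrane partner of that pair, overlapped at 70.0, 63.8 and 71.0 CPM in WT and 68.8, 61.0 and 69.5 CPM in knockout (-0.04 ± 0.07, adjusted p = 0.678, 95% interval -0.20 to 0.12). Rmc1, which overlaps Npc1 on the other strand, fell (-0.28 ± 0.07, adjusted p = 0.00863). The exit pair was therefore called for its soluble member and not for its membrane member.

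Nr1h2 encodes LXR beta, the sterol-sensing receptor. It was at 64.3, 59.6 and 54.2 CPM in WT and 42.6, 47.3 and 54.9 CPM in knockout. Knockout replicate 3 lay inside the WT range, and the fall (-0.30 ± 0.10, adjusted p = 0.0330) did not pass without WT replicate 1, WT replicate 2, knockout replicate 1 or knockout replicate 2 (adjusted p from 0.0853 to 0.121).

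Abca1 and Abcg1, the efflux pumps that LXR is known to induce, were not called. Abca1 was at 10.2, 8.54 and 12.3 CPM in WT and 8.05, 13.0 and 11.2 CPM in knockout, with overlapping groups and a wide 95% interval (0.06 ± 0.19, adjusted p = 0.829, interval -0.38 to 0.49). Abcg1 was at 29.3, 29.4 and 29.3 CPM in WT and 31.0, 28.5 and 31.2 CPM in knockout (0.04 ± 0.07, adjusted p = 0.627, interval -0.11 to 0.20). The interval of Abcg1 leaves out a change of 1.2-fold, and that of Abca1 does not.

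Mylip (ENSMUSG00000038175.11) encodes the ubiquitin ligase that LXR induces to break down lipoprotein receptors. It was at 2.92, 2.41 and 3.09 CPM in WT and 4.43, 4.75 and 5.61 CPM in knockout, from 92 to 198 counts a library, and per kilobase of exon its WT level of 0.868 CPM was the lowest of the 32 members. All knockout libraries lay above WT, a rise of 0.81 ± 0.17 on the log2 scale (adjusted p = 0.00356). Stard4, a soluble sterol carrier, was at 169.8, 163 and 184 CPM in WT and 199.97, 196 and 195 CPM in knockout. Its rise was small (0.19 ± 0.06, adjusted p = 0.0264) and passed in 1 of the 6 analyses that left out a library, the one without WT replicate 3. In the other 5 its adjusted p ran from 0.0580 to 0.103.

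**Figure D5:**
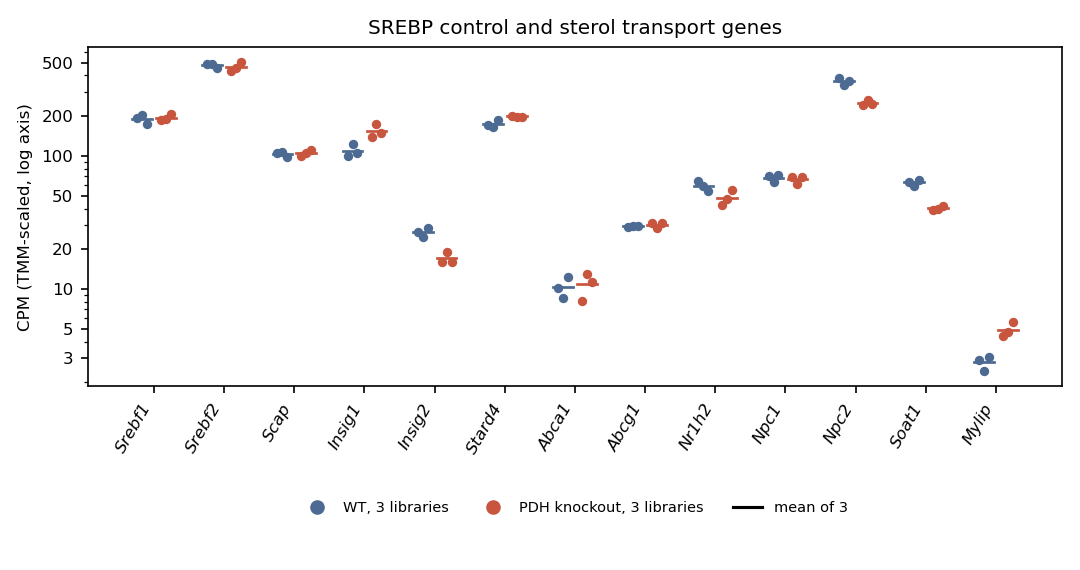
Levels of the 5 SREBP control genes and the 8 transport, efflux and storage genes as TMM-scaled CPM on a log axis, with a point for each library and a line at the mean of 3. Insig1 and Mylip are higher and Insig2, Npc2 and Soat1 lower in knockout without overlap, while Nr1h2 overlaps through knockout replicate 3.

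Other genes of sterol handling came from lists separate from the members. Of 17 other sterol carrier, lysosome and ester genes, 2 rose (11.8%), 7 fell (41.2%) and 8 were not called, against 23.1% and 24.5% of all genes tested that rose and fell. Osbpl9, an oxysterol-binding protein family gene, was at 109, 97.0 and 120.1 CPM in WT and 53.8, 60.8 and 59.0 CPM in knockout (log2 fold change -0.91 ± 0.08, adjusted p = 5.1e-05). Scarb1, the scavenger receptor that takes up cholesterol from lipoproteins, and Lipa, the lysosomal lipase that frees it from esters, also fell (-0.54 ± 0.07 and -0.57 ± 0.07, adjusted p = 0.000240 and 0.000288). Soat2, the paralog of Soat1 and chosen after its values were seen, was low but rose, from 4.46, 3.75 and 3.68 CPM to 9.80, 4.58 and 7.48 CPM (0.88 ± 0.25, adjusted p = 0.0192).

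Among 5 lipoprotein uptake genes 1 rose (20%), 2 fell (40%) and 2 were not called, against 23.1% and 24.5% of all genes tested that rose and fell. Lrp1, a large endocytic receptor, was at 8.05, 9.01 and 12.2 CPM in WT and 28.8, 32.2 and 36.0 CPM in knockout (1.73 ± 0.16, adjusted p = 7.55e-05). Lrp8, a receptor of the same family, and Snx17, a sorting nexin that recycles such receptors, fell (-0.54 ± 0.08 and -0.24 ± 0.08, adjusted p = 0.000438 and 0.0255). Of 7 LXR partners and further LXR targets 1 rose (14.3%), 2 fell (28.6%) and 4 were not called, again beside 23.1% and 24.5% of all genes tested. Rxra, the receptor that pairs with LXR and with many other nuclear receptors, was at 27.5, 39.3 and 23.7 CPM in WT and 108, 103 and 94.7 CPM in knockout (1.76 ± 0.19, adjusted p = 0.000651). The LXR targets Lpcat3 and Smpdl3a fell (-0.41 ± 0.06 and -0.97 ± 0.19, adjusted p = 0.000697 and 0.00228). The LXR targets followed here, which are not all the known ones, went up (Mylip), down (Lpcat3, Smpdl3a) or were not called (Abca1, Abcg1, Arl4c, Pltp, Abcg4). Other genes of this report that LXR may also act on are not counted among them.

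The fatty acid arm of SREBP, for which Srebf1 is best known, moved in both directions. Of its 14 tested genes 5 rose (35.7%), 3 fell (21.4%) and 6 were not called, against 23.1% and 24.5% of all genes tested that rose and fell. Fasn, fatty acid synthase, and Acaca, which feeds it, rose by 1.48 ± 0.08 and 0.75 ± 0.06 (adjusted p = 6.22e-06 and 2.98e-05), while Elovl6, the elongase, fell by 0.89 ± 0.07 (adjusted p = 1.94e-05). Scd1 and Scd2, paralogous desaturase genes chosen after their values were seen, moved in opposite directions as the INSIG pair did. Scd1 was at 256, 253 and 285 CPM in WT and 145, 147 and 186 CPM in knockout (-0.73 ± 0.10, adjusted p = 0.000453). Scd2 was at 1685, 1670.3 and 1827 CPM in WT and 2153, 2001 and 2164 CPM in knockout (0.29 ± 0.07, adjusted p = 0.00760).

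B cell marker counts were raised in WT replicate 2 and knockout replicates 2 and 3, and their part in these results was not tested beyond fits that leave those libraries out or take the markers as a term. Without the 3 libraries, which leaves knockout replicate 1 as the only knockout library, assumed to vary as the WT libraries do, 10 members rose and 5 fell. The 6 members that then did not pass were Ebp, Ggps1, Mylip, Nsdhl, Stard4 and Tm7sf2 (adjusted p from 0.0639 to 0.281). With the summed markers as a covariate, Tm7sf2 alone did not pass (adjusted p = 0.0987). Idi1, Lss, Hmgcs1, Acat2, Mvd, Fdft1, Insig1, Insig2, Npc2 and Soat1 were called in each of the 19 alternatives.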

How the data were processed

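RNA from 3 WT and 3 PDH knockout Th17 cultures was sequenced after preparation with a stranded mRNA kit, per the labels' protocols. The values the authors deposited are expected counts, estimated reads per gene in whole numbers that needed no rounding. Salmon, DESeq2 and DESeq are named, without versions or roles, per the submitters' processing notes. Neither the genome build, the annotation nor the strand setting of the counting is given in the sources used here. Every deposited row held at least 10 counts in at least 3 libraries.

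Symbols were matched by unversioned gene ID to GENCODE M21: 15138 of 15452 IDs matched, 314 did not, and 13 that shared a symbol are given by ID. Exon lengths per kilobase and overlapping genes also come from that release. Counts were tested with edgeR 4.0.16 in R 4.3.3 by its quasi-likelihood F test, after filterByExpr (which removed 91 genes) and TMM scaling, in a robust fit of genotype alone. P-values were adjusted over 15361 genes (Benjamini-Hochberg), and the threshold was 0.05. Intervals are at 95%. Depth ran from 33.8 to 40.4 M counts (M, 1e+06), at which 3 counts are 0.0742 to 0.0888 CPM, and the biological coefficient of variation was 13.8%. No replicates were alike enough to be 1 library deposited again (chi-square per degree of freedom at least 24.1). Knockout replicate 2 stood apart, with values of 154 and 143 against knockout replicates 1 and 3. Every other pair within a group gave at most 30.1. In knockout replicate 2 the entry ENSMUSG00000119584.1 took 4.95% of counts, while the largest entry of any other library took at most 1.40%.

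The members and gene lists were chosen with earlier results of these data known. All 32 members are named, and of each related list up to 3 called genes with the smallest p. Some genes that this rule takes are not reported here. Mbtps1, Mbtps2, Soat2, Scd1, Scd2, Arl4c, Pltp, Abcg4, the paralogs, the overlapping genes and those of the closing observations beyond that rule were chosen after their values were seen. Alternatives were RLE, upper-quartile and total scaling, DESeq2 1.42.0, limma-voom (limma 3.58.1), no robust estimation, no filter, a filter at 50 counts in 3 libraries, a replicate block, a test against 1.2-fold, leaving out each library, the 3 libraries with raised B cell markers left out, those markers as a covariate, and 27 entries raised in knockout replicate 2 left out before scaling. Promoters are those of RefSeq for GRCm38.p6, used for their letters only. Figures were drawn with matplotlib 3.10.9.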

Additional observations from a re-analysis of the deposited data

How the results depend on the processing

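Over 19 alternatives, 10 members were called in every one and 10 were called in none. RLE scaling, DESeq2, limma-voom, no filter, no robust estimation and leaving out 27 raised entries changed no member call. Tested against a fold change of 1.2, 3981 genes were called in place of 7311, and 8 members rose and 3 fell in place of 13 and 8. The members' median log2 fold change of 0.08 became 0.16 under upper-quartile scaling, 0.12 with library totals and 0.12 with at least 50 counts in 3 libraries, while the median of all genes went from 0.01 to 0.09, 0.05 and 0.00. Leaving out each library in turn gave a median of 0.0428 (without knockout replicate 3) to 0.120 (without WT replicate 3), with 11 to 13 members rising, 6 to 8 falling and 5524 to 6961 genes called. Without the 3 libraries with raised B cell markers 5 members fell. Of all called genes 48.5% rose, against 59.95% by upper-quartile factors. Upper-quartile scaling and library totals each ended the calls of Tm7sf2 (adjusted p = 0.0869 and 0.0718) and Nr1h2 (adjusted p = 0.0995 and 0.0716). The filter at 50 counts also ended that of Nr1h2 (adjusted p = 0.0597). Same-numbered libraries did not deviate together (correlations of -0.10, 0.09 and -0.26). At 3 libraries a group, such correlations cannot exclude that the numbers pair the samples. With the replicate block 7218 genes were called, 13 members rose and 7 fell, and Nr1h2 did not pass (adjusted p = 0.0722).

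Counts over whole genes cannot separate overlapping genes if strand was not used. With 3 libraries a group, the causes of the changes named here were not tested.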

Other observations

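Farnesyl groups that do not go to squalene are built into dolichol, coenzyme Q and the lipid tails of proteins such as small GTPases. Of 14 genes of this isoprenoid branch 3 rose, 2 fell and 9 were not called, 35.7% called against 47.6% of all genes tested. Nus1, a subunit of the enzyme that makes dolichol chains, was at 99.9, 111 and 97.6 CPM in WT and 78.9, 79.0 and 71.2 CPM in knockout (log2 fold change -0.43 ± 0.07, edgeR adjusted p = 0.00101). Its partner Dhdds was not called (0.18 ± 0.08, adjusted p = 0.0732). Coq2, which attaches the isoprenoid tail of coenzyme Q, was at 43.9, 44.2 and 43.8 CPM in WT and 54.2, 54.2 and 53.9 CPM in knockout (0.30 ± 0.06, adjusted p = 0.00198). Pggt1b, the beta subunit of a geranylgeranyl transferase, rose by 0.26 ± 0.06 (adjusted p = 0.00644). Its alpha subunit gene Fnta, shared with the farnesyl transferase, fell (-0.24 ± 0.06, adjusted p = 0.0123), and Fntb, the beta subunit gene of the farnesyl enzyme, rose (0.25 ± 0.08, adjusted p = 0.0303).

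Oxysterols are oxidised sterols that act on LXR and INSIG and, through the receptor of Gpr183, guide T cells. Of 6 listed genes 3 were tested. Hsd3b7, which breaks down the ligand of that receptor, rose from 2.86, 1.83 and 1.83 CPM to 2.75, 4.24 and 3.77 CPM with overlapping groups (0.72 ± 0.24, adjusted p = 0.0330). Sult2b1, a sterol sulfotransferase gene, was at 1.57, 1.57 and 1.19 CPM in WT and 0.569, 1.06 and 0.595 CPM in knockout (-0.96 ± 0.29, adjusted p = 0.0214). Gpr183 itself overlapped (0.02 ± 0.19, adjusted p = 0.933).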
